A study of Mus musculus with 5 samples.

Results

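The cytochrome P450 genes of the mouse kidney were followed in droplet single-cell RNA libraries from a model of reversible ureteric obstruction. Members were all gene symbols in the deposited gene lists made of Cyp, a family number, a subfamily letter and a gene number, with at least 1 unique molecular identifier (UMI, 1 captured transcript) in the droplet libraries. Of 94 symbols of this form, 62 were detected and 32 had 0 UMIs, among 28692 gene identifiers of which 20576 had at least 1 UMI. The pattern left out 8 other Cyp symbols of another form, among them Cyp51 and the ω-hydroxylase genes Cyp4a12a and Cyp4a12b. The 62 members held 86708 deposited UMIs, 70088 of them in the cells kept after filtering.

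All samples came from kidneys of 8-week-old C57/BL6 mice, with 3 mice pooled per library. The 4 droplet groups were sham surgery (day 0), 2 days and 7 days of unilateral ureteric obstruction (UUO), and 7 days after the obstruction had been reversed (experimental day 14). The remaining sample held 768 Smart-seq2 wells with all time points mixed and was placed in no group. Each group was 1 library, so a difference between groups cannot be told apart from a difference between libraries and was not tested, and all intervals cover counting error only. S3-like and S1-like cells were found in each of the 4 libraries, so that contrast was also tested across libraries.

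Cytochrome P450 enzymes are haem proteins of the endoplasmic reticulum or mitochondria that insert an oxygen atom into fatty acids, sterols, vitamins and foreign compounds, with electrons from P450 reductase, cytochrome b5 or ferredoxin. In the kidney they are best known from the proximal tubule, the nephron part that reabsorbs most of the filtrate. There, Cyp4a enzymes ω-hydroxylate arachidonic acid, Cyp2j and Cyp2c enzymes epoxidise it, and Cyp27b1 and Cyp24a1 make and break down active vitamin D. Levels below are counts per 1000000 UMIs (CPM) summed over the cells of a type, not divided by transcript length because each transcript is counted at its 3′ end. A member was called higher or lower from a 2-fold difference in CPM with 1 CPM added, among genes with at least 20 UMIs in both sums together.

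The libraries held 5938 sham, 2739 day 2, 4504 day 7 and 3695 reversed barcodes with 18649637 to 30462683 UMIs per library, and 3746, 2159, 4287 and 3140 cells were kept. Cells were assigned from marker genes, none of them a Cyp gene. Proximal tubule cells numbered 3025, 595, 200 and 1110, which is 80.8%, 27.6%, 4.67% and 35.4% of kept cells, and all 10 proximal markers were detected in each library. Summed proximal marker level in these cells was 15132, 9375, 9655 and 14491 CPM. S1-like cells (early tubule, Slc5a2, Slc5a12, Slc7a7 and Slc7a8) numbered 1474, 347, 62 and 700, and S3-like cells (late tubule, Slc7a13, Atp11a, Rnf24 and Slc5a8) 397, 43, 80 and 175. The day 2 S3-like cells rested on Atp11a with 124 UMIs more than on Slc7a13 with 17 UMIs, and Atp11a was also present in thick ascending limb cells. Pairs of libraries shared 16 to 39 barcodes. Each library had 1 to 6 Xist UMIs and 528 to 1928 Ddx3y UMIs. The proximal marker list reached 6.998% to 10.6% of its proximal level in the thick ascending limb, endothelial and phagocyte cells of the sham library, and less in the other libraries, and the part of free RNA in member levels outside the proximal tubule was not tested. The median gene of the proximal sums shifted by 0.28 (day 2 over sham), 0.23 (day 7 over day 2), -0.25 (reversed over day 7) and 0.26 (reversed over sham) on the log2 scale, and TMM scaling moved these medians by -0.29, -0.24, 0.23 and -0.29.

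The members were unevenly expressed. Cyp4b1, Cyp2j5 and Cyp2e1 held 18743, 13815 and 7840 kept UMIs, together 57.6% of all member UMIs. At least 200 UMIs were found for 29 members, and 21 members had fewer than 20. Of the 39 members whose highest cell type could be read (at least 20 cells and 10 UMIs there), 19 were highest in proximal tubule cells, 13 of them in S3-like and 5 in S1-like cells and 1 in cells of neither segment. The others were highest in intercalated cells (5), phagocytes (4), endothelium (3), principal cells (3), distal convoluted tubule (2), podocytes (2, on 3 to 7 cells per library) and neutrophils (1). Family members share sequence, and 17 of the 62 shared more than 10% of the 50-base words in their last 400 transcript bases with another gene. Among the members with most UMIs these were Cyp4b1 (10.4%, with a pseudogene), Cyp2e1 (14.4%), Cyp4a31 (16.4%), Cyp2a4 (33.3%), Cyp2a5 (26.1%), Cyp2d26 (33.0%), Cyp2d12 (13.6%), Cyp2d22 (19.2%) and Cyp2d9 (30.6%); how far this sharing affects their counts was not tested.

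**Figure D1:**
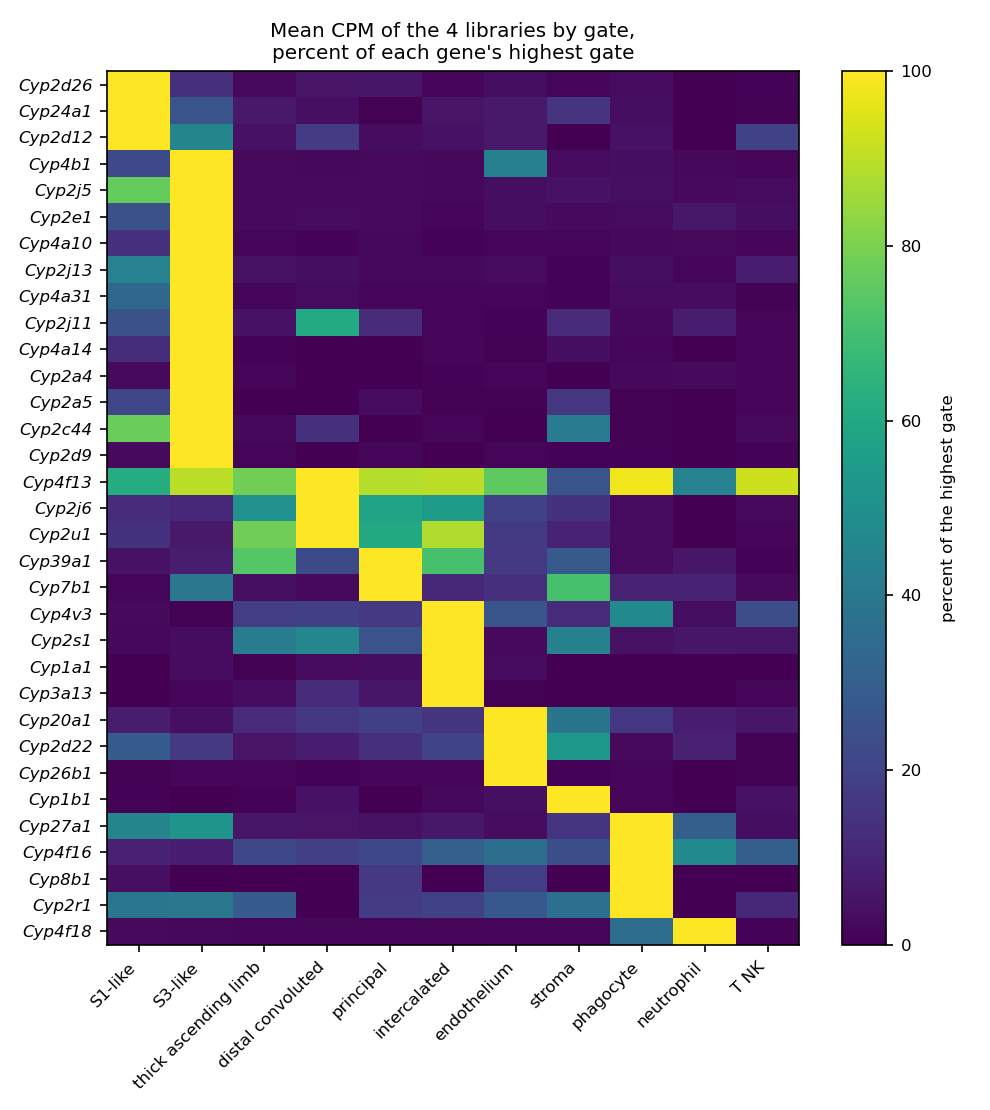
Level of 33 members in 11 cell types, as the mean CPM over the libraries that hold the cell type, in percent of each member's highest cell type. Rows are members and columns are cell types; 12 rows peak in S3-like and 3 in S1-like proximal cells, and the other 18, such as Cyp20a1, Cyp4f18 and Cyp1a1, peak in other cell types.

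The promoters of 6 members are shown because the results below turn on these members. They are the most abundant member (Cyp4b1), S3-like members (Cyp2e1, Cyp2a4, Cyp2a5, Cyp2d9) and Cyp2d26. In the main processing Cyp2d26 was the member called lower in S3-like cells in every library. Each promoter is 250 bases before to 50 after the RefSeq transcription start on GRCm38.p6, in the direction of transcription. Capitals mark the TATA box letters TATAAA on either strand (TTTATA on the reverse) and, in Cyp2d9, the direct repeat AGGNCANAGGNCA, a nuclear receptor half-site pair. The RefSeq start of Cyp2d9 lies inside its GENCODE gene, which begins upstream at 82433437.
Cyp4b1, chr4:115647672-115647971, minus strand: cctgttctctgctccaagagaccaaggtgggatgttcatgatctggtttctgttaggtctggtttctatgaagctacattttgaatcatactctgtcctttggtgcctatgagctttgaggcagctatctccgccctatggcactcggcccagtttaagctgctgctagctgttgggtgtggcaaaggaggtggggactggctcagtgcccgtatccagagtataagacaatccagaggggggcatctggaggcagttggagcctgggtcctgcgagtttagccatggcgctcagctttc
Cyp2e1, chr7:140763569-140763868, plus strand: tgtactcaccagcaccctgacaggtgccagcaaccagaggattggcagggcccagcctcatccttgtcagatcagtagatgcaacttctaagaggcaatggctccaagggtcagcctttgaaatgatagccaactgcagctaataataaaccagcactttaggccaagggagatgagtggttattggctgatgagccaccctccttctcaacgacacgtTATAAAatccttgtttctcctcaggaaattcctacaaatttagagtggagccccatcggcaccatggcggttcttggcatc
Cyp2a4, chr7:26306942-26307241, plus strand: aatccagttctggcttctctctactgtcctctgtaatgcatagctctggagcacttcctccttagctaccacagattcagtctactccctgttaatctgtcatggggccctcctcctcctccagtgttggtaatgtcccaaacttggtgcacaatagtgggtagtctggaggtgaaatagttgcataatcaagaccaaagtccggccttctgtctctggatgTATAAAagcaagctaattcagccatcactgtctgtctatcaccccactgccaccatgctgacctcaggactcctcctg
Cyp2a5, chr7:26835089-26835388, plus strand: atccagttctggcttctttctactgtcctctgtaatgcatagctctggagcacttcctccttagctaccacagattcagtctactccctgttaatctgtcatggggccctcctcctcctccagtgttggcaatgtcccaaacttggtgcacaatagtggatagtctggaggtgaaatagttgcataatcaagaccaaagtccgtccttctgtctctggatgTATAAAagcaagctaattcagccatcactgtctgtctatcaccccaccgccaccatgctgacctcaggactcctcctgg
Cyp2d9, chr15:82452127-82452426, plus strand: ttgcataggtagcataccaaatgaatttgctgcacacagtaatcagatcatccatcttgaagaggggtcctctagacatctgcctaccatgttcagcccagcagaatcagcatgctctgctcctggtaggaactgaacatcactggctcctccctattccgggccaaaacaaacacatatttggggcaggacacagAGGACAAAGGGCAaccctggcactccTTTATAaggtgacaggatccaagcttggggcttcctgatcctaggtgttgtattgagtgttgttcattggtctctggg
Cyp2d26, chr15:82794196-82794495, minus strand: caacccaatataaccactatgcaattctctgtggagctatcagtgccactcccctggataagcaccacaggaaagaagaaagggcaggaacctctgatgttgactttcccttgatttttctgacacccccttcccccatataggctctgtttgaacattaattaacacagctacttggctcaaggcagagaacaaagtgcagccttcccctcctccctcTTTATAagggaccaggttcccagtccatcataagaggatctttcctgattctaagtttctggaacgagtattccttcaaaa
The TATA letters began 31 bases before the start in Cyp2e1, 28 in Cyp2a4 and 29 in Cyp2a5, and on the reverse strand 31 before it in Cyp2d26 and 28 in Cyp2d9. The Cyp4b1 window held neither motif. Of the 62 members, 47 had a promoter window in the RefSeq table (52 windows), and 19 of them held the TATA letters, in 36.5% of member windows against 13.6% of all 32851 windows. The direct repeat was found in 3 members, all of the Cyp2d subfamily (Cyp2d9, Cyp2d10 and Cyp2d40), or 5.77% of member windows against 0.381% of all. The 2 motifs did not overlap in these windows, and a match is a description of letters only. Cyp2a4 and Cyp2a5, both on chromosome 7, were 97.7% identical over 301 aligned promoter columns, while Cyp2d26 and Cyp2d9, both on chromosome 15, were 53.9% identical.

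Segment was the first axis along which the members differed. In sham kidneys 10 of 23 tested members were at least 2-fold higher in S3-like than in S1-like cells, against 5.55% of all tested genes, and 2 were lower, against 5.8%. Summed over all members, the sham level was 1928 CPM in S1-like and 5635 CPM in S3-like cells. The direction held in the other libraries, with sums of 1269 and 2800 CPM at day 2, 1462 and 3847 CPM at day 7, and 1644 and 3713 CPM after reversal. Called higher in S3-like cells were 7 of 20 members at day 2 (7.2% of all genes), 8 of 13 at day 7 (6.14%; Cyp7b1, 1 of the 8, had 21 of its 22 UMIs in 1 cell) and 9 of 24 after reversal (4.51%). Called lower were 3 at day 2 (9.77%), 1 at day 7 (10.4%) and 5 after reversal (5.81%). The 20 UMIs needed are counted over both segments, so a member can be tested through the segment where it is high. Cyp24a1 and Cyp2d12 were not among the 13 tested at day 7. With no low-count filter 15 members were higher (15.4%) and 9 lower (21.9%) at day 7.

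The S3-like and S1-like sums of the 4 libraries were then compared as pairs with edgeR's quasi-likelihood test and Benjamini-Hochberg adjustment over 11457 genes, the segment markers left out. Of 28 tested members, 11 were higher in S3-like cells at an adjusted p under 0.05 (5.52% of all genes) and 4 were lower (4.98%). Cyp2a4 (log2 4.82, adjusted p 4.14e-14), Cyp4b1 (2.08, 1.05e-10) and Cyp2e1 (2.03, 3.18e-10) were higher in S3-like cells in 4 of 4 libraries. Cyp2d26 (log2 -2.95, adjusted p 4.73e-11), Cyp24a1 (-2.56, 1.42e-06) and Cyp2d12 (-1.17, 0.0022) were higher in S1-like cells in 4 of 4, with the day 2 difference of Cyp24a1 within counting error. The other 8 called higher were Cyp4a10, Cyp4a14, Cyp4a31, Cyp2d9, Cyp2j11, Cyp2j13, Cyp2a5 and Cyp7b1, and the other called lower was Cyp27b1. Cyp2j5 was not called (log2 0.34, adjusted p 0.13), but was called higher without the day 7 library or without TMM factors. When 1 library at a time was left out, 14 to 15 members were called (11 higher, against 3.4 to 6.48% of all genes, and 3 to 4 lower, against 2.72 to 5.82%). Cyp27b1 was not called without the sham, day 2 or day 7 library, and Cyp7b1, with 21 of its UMIs in 1 day 7 cell, fell under the 20 UMIs needed without day 7. With no pairing by library, 7 were higher (1.82% of all genes) and 1 lower (1.48%). The calls of Cyp4b1 (adjusted p 0.0651 without pairing), Cyp24a1 (0.0721), Cyp2d12 (0.746), Cyp4a14, Cyp2j13, Cyp7b1 and Cyp27b1 were then lost. The libraries differ in condition and the segments were drawn from marker genes of the same cells, so the test covers the spread of the segment difference over these 4 libraries only.

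Of the 12 members tested in each library, 6 were called higher in S3-like cells in all 4 (1.48% of the genes so tested) and 1 lower (0.984%). A member could enter the 12 through the segment where it is high, so these counts are not shares of all members. The 6 were Cyp4b1, Cyp2e1, Cyp2a4, Cyp4a10, Cyp4a14 and Cyp4a31. The day 2 call of Cyp4a31 (log2 1.11) was lost in 4 of 10 alternatives, with a lowest value of 0.50, while those of the other 5 held in all 10. Cyp4b1, a hydroxylase of fatty acids and of plant toxins on chromosome 4 (115624725 to 115647723, minus strand), stood at 529, 170, 245 and 292 CPM in S1-like cells and at 2640, 576, 1047 and 1369 CPM in S3-like cells of the sham, day 2, day 7 and reversed libraries. Each S3-like value lay above every S1-like value. In sham cells the log2 ratio was 2.32 (95% counting interval 2.25 to 2.39), from 3854 S3-like and 2928 S1-like UMIs. Cyp2e1, which oxidises ethanol and paracetamol, was at 139, 153, 268 and 222 CPM in S1-like cells and at 970, 614, 773 and 790 CPM in S3-like cells. Its ratio narrowed from 6.93-fold in sham to 2.88-fold at day 7, because the S1-like level was higher and the S3-like level lower there.

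Cyp2a4, a steroid 15α-hydroxylase, and Cyp2d9 had the highest S3-like over S1-like ratios among sham members with 1 CPM added (log2 4.36 and 4.30), and other processing moved these to between 3.05 and 4.48 and between 2.60 and 4.42 and that of Cyp4a14 (4.12) to between 2.57 and 6.70. Cyp2a4 had 4.34, 4.84, 0 and 3.13 CPM in S1-like cells and 109, 121, 160 and 113 CPM in S3-like cells. On the CPM scale the day 7 S3-like level lay above that of sham beyond counting error (intervals 128 to 197 and 92.7 to 127 CPM). The TMM factors of these S3-like sums were 1.097 at day 7 and 0.887 in sham, which brings the levels closer. The difference on that scale was not tested. With 1 CPM added the ratio was 20.6-fold in sham, 20.9-fold at day 2 and 27.6-fold after reversal. At day 7 S1-like cells had none, and 3 counts there would be 6.33 CPM. Cyp2a5, a coumarin hydroxylase whose promoter differs from that of Cyp2a4 at few bases, was 3.41-fold higher in S3-like cells in sham (log2 1.77, interval 1.26 to 2.27), with 61 S3-like and 64 S1-like UMIs against 159 and 24 for Cyp2a4. The intervals of the 2 sham ratios did not overlap (3.83 to 4.91 for Cyp2a4), although each gene shares part of its 3′ words with others.

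Members of the opposite pattern were fewer. Cyp2d26, a member of the Cyp2d group of drug and steroid hydroxylases, was called lower in S3-like cells in every library, with 210, 85.3, 50.6 and 186 CPM in S1-like cells and 37.7, 10.4, 9.18 and 15.5 CPM in S3-like cells. Its day 7 call was lost with at most 20% mitochondrial UMIs per cell, where 0 members were lower (11.6% of all genes). Cyp24a1, the mitochondrial enzyme that inactivates vitamin D, was at 90.02 CPM in S1-like and 8.91 CPM in S3-like sham cells (log2 -3.20). At day 2 its S1-like level was 18.9 CPM and its S3-like level 17.4 CPM, the latter from 5 UMIs with an interval of 5.63 to 40.5 CPM, so a segment difference was not detectable at this depth. Cyp2d9, a testosterone 16α-hydroxylase in the same subfamily as Cyp2d26, ran the other way in sham cells, with a log2 ratio of 4.30 and 65.1 CPM in S3-like cells. Cyp2j5, an arachidonic acid epoxygenase, was the abundant member that differed least between segments. It had 628, 443, 557 and 585 CPM in S1-like and 937, 514, 709 and 740 CPM in S3-like cells, with log2 ratios of 0.58, 0.21, 0.35 and 0.34.

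**Figure D2:**
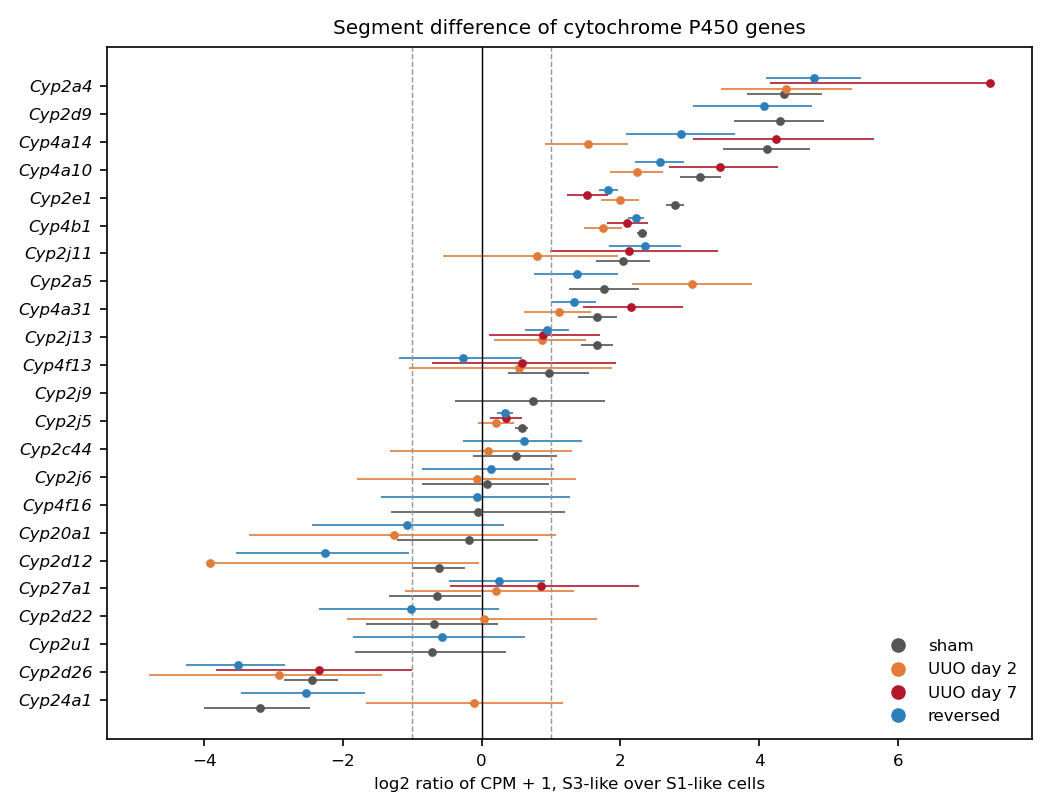
Log2 ratio of S3-like over S1-like CPM for 23 members in each droplet library, with bars for the 95% counting interval. Points with 0 UMIs in one segment (Cyp2a4 at day 7, Cyp2d12 at day 2) rest on the added 1 CPM. In sham Cyp2a4, Cyp2d9, Cyp4a14 and Cyp4a10 lie furthest to the S3-like side, and Cyp2d26 lies on the S1-like side in all 4 libraries.

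Over the course of obstruction the summed member level in proximal cells was 2720 CPM in sham (interval 2687 to 2753), 1562 at day 2 (1519 to 1606), 2707 at day 7 (2619 to 2796) and 2127 after reversal (2091 to 2163). Day 2 was the lowest and its interval lay apart from the others. These sums weigh abundant members most, and Cyp4b1 had the largest absolute difference between day 2 and sham (levels below). The Cyp4b1 level was also lower at day 7 than in sham, and sums without Cyp4b1 were not taken. The proximal marker list was low at both day 2 and day 7 (9375 and 9655 CPM, against 15132 in sham), and its part in the member sums was not tested. The near-equal sham and day 7 sums depend on the scale and the cells kept: with TMM factors they were 3360 and 2243, and with at most 20% mitochondrial UMIs per cell 3073 and 2244. Mitochondrial genes took 34.1%, 24.2%, 18.8% and 29.1% of the proximal UMIs. Within S1-like cells day 7 was at 1462 CPM against 1928 in sham, and within S3-like cells at 3847 against 5635. S3-like cells were 80 of the 200 proximal cells at day 7 and 397 of 3025 in sham, so the pooled day 7 value contains more S3-like cells.

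At day 2, 7 of 26 tested members were lower than in sham, against 1.49% of all tested genes, and 2 were higher, against 9.54%. The median member ratio was 0.00 on the log2 scale and that of all genes 0.28. With at most 20% mitochondrial UMIs per cell the medians were -0.62 for 20 members and -0.078 for all genes, and 6 members were lower (6.39%) and 2 higher (5.31%). With 10 CPM added 4 members were lower (0.561%) and 1 higher (2.36%). The lower ones were Cyp4b1, Cyp2d26, Cyp2d12, Cyp2d9, Cyp24a1, Cyp2j11 and Cyp2u1, and the higher ones were Cyp4a14 and Cyp4f18. Over 8 alternatives in the processing, the Cyp2u1 call (log2 -1.06) held in 4, with a value of -0.40 at 10 CPM added. Those of Cyp2j11 and Cyp2d9 held in 7 and that of Cyp4f18 in 6, with values of -0.81, -0.97 and 0.77 at 10 CPM added, and the others held in all 8. With at most 20% mitochondrial UMIs per cell Cyp2u1 and Cyp4f18 had fewer than 20 UMIs. Within S1-like cells 4 of 24 were lower (1.5% of genes) and 3 higher (9.42%), and within S3-like cells 6 of 16 were lower (8.04%) and 1 higher (11.1%). Proximal cells of the day 2 library had 279 CPM of 5 injury genes (Havcr1, Krt20, Sox9, Vcam1 and Lcn2) against 2.29 CPM in sham, 603 at day 7 and 68.2 after reversal. The S3 marker list in pooled proximal cells stood at 344, 128, 606 and 317 CPM, and S3-like cells were 43 of 595 at day 2 against 397 of 3025 in sham. The part of injury genes and of segment make-up in the pooled member levels was not tested.

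Cyp4b1 was the member with the largest absolute difference. Its proximal level was 1021, 244, 665 and 557 CPM in sham, day 2, day 7 and reversed cells, from 9819, 795, 886 and 3520 UMIs. Day 2 was 4.16-fold below sham (log2 -2.06, interval -2.16 to -1.95), and the fall was also called within S1-like (-1.63) and S3-like (-2.19) cells. The S3-like cells of day 2 differed from those of sham in their markers. Slc7a13 was at 59.0 against 826 CPM and Slc5a8 at 156 against 353, with Atp11a at 430 against 523. The part of this in the S3-like differences of Cyp4b1 and other members between day 2 and sham was not tested. The higher pooled level at day 7 over day 2 (log2 1.44) was 0.52 within S1-like and 0.86 within S3-like cells, under the 2-fold limit in both. After reversal the level was 1.83-fold below sham. The share of proximal cells with a Cyp4b1 UMI was 70.0%, 51.3%, 79.0% and 66.0%, and 48.7%, 21.5%, 50% and 34.5% when each cell was thinned to 1000 UMIs. T and NK cells, which should lack it, had 1.89%, 7.47% and 5.98% of cells with a UMI at day 2, day 7 and reversal (median depths 3556, 3504 and 3180 UMIs, against 4421, 5434 and 4541 in proximal cells). Sham had 19 T and NK cells, under the 20 needed, so its share has no such comparison. The proximal marker list in T and NK cells was at 10.3% of its proximal level in sham and at 2.15%, 0.824% and 4.73% later.

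Cyp24a1 and 3 of the 4 Cyp2d members tested (Cyp2d26, Cyp2d12 and Cyp2d9) were also among the members lower at day 2, against 1.49% of all genes. The 8 Cyp2d members, tested or not, together had 245, 85.2, 60.8 and 173 proximal CPM, lowest at day 7. Cyp2d26 followed this with 158, 62.7, 30.0 and 140 CPM, so that its reversed level was 4.55-fold above day 7 and within 1.13-fold of sham. The S1 marker list in pooled proximal cells stood at 930, 811, 450 and 1003 CPM. Its part in the pooled Cyp2d and Cyp24a1 levels was not tested. Cyp2d12, another Cyp2d hydroxylase, had 63.5, 8.92, 13.5 and 19.3 CPM and remained 3.18-fold below sham after reversal (log2 -1.67, interval -1.95 to -1.40). Cyp2d9 had 138, 8, 14 and 36 UMIs, or 14.4, 2.46, 10.5 and 5.70 CPM. These 2 were the members called lower in the reversed library than in sham, 2 of 28 tested against 0.186% of all genes. Each call was lost in 1 of 8 alternatives, Cyp2d12 with at most 20% mitochondrial UMIs per cell (log2 -0.74) and Cyp2d9 with 10 CPM added (-0.63). Both were also called lower there within S3-like cells, where Cyp2d12 had 45.2 CPM in sham and 3.87 CPM after reversal.

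Cyp24a1 had 65.0, 15.1, 15.0 and 45.7 CPM from 625, 49, 20 and 289 UMIs. Both obstructed libraries lay more than 4-fold below sham, and the reversed library was 2.92-fold above day 7. Cyp27b1, the 1α-hydroxylase that makes active vitamin D, was chosen after its values were seen because it is the counterpart of Cyp24a1. It had 16, 12, 13 and 21 UMIs, or 1.66, 3.69, 9.76 and 3.32 CPM, with 0.496%, 2.02%, 5.00% and 1.89% of proximal cells holding a UMI. The Cyp27b1 level was highest at day 7, where Cyp24a1 was low, and its day 7 and reversed intervals (5.20 to 16.7 and 2.06 to 5.08 CPM) did not overlap.

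Among the Cyp4a genes Cyp4a14 was called higher at day 2 in pooled proximal cells (9.54% of all genes), and none was called between day 2 and day 7 there. Within S1-like cells Cyp4a10 and Cyp4a14 were both called higher at day 2 than in sham (9.42% of all genes). In these cells both were called lower at day 7 than at day 2 (3.22%). Together the 4 Cyp4a members had 139, 294, 414 and 126 proximal CPM. Cyp4a14, an ω-hydroxylase known as a PPARα target, had 14.9, 66.7, 116 and 9.49 CPM from 143, 217, 155 and 60 UMIs, high in both obstructed libraries and low in sham and after reversal. Day 2 was 4.27-fold above sham (log2 2.09, interval 1.79 to 2.39), and the reversed library was 11.2-fold below day 7 (log2 -3.48, interval -3.90 to -3.07). Cells with a Cyp4a14 UMI were 3.11%, 16.8%, 30.0% and 4.14% of proximal cells, and 1.29%, 5.88%, 12.0% and 0.901% at 1000 UMIs per cell, against 0% to 0.671% of endothelial cells (median depths 2356 to 3791 UMIs).

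Cyp4a14 was then read by segment. S1-like cells had 2.89, 40.2, 10.6 and 3.61 CPM and S3-like cells 66.5, 118, 217 and 32.9 CPM. The S1-like level was thus highest at day 2 (16, 83, 5 and 15 UMIs) and the S3-like level at day 7 (97, 34, 118 and 34 UMIs). The S3-like ratio of day 7 over day 2 (log2 0.87) stayed under the 2-fold limit, and a difference in timing between the segments was not tested. Cyp4a10, another PPARα target of the same group, was at 66.0, 127, 181 and 52.7 proximal CPM, at 23.9, 69.8, 31.7 and 25.8 in S1-like cells and at 220, 333, 353 and 158 in S3-like cells. Cyp4a31 had 57.8, 101, 116 and 63.6 proximal CPM and was called in none of the 4 library comparisons. Ppara, the receptor known to drive Cyp4a genes, was chosen after its values were seen, and had 10.1, 12.6, 18.8 and 13.4 proximal CPM, not called in the 4 comparisons of pooled proximal cells.

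**Figure D3:**
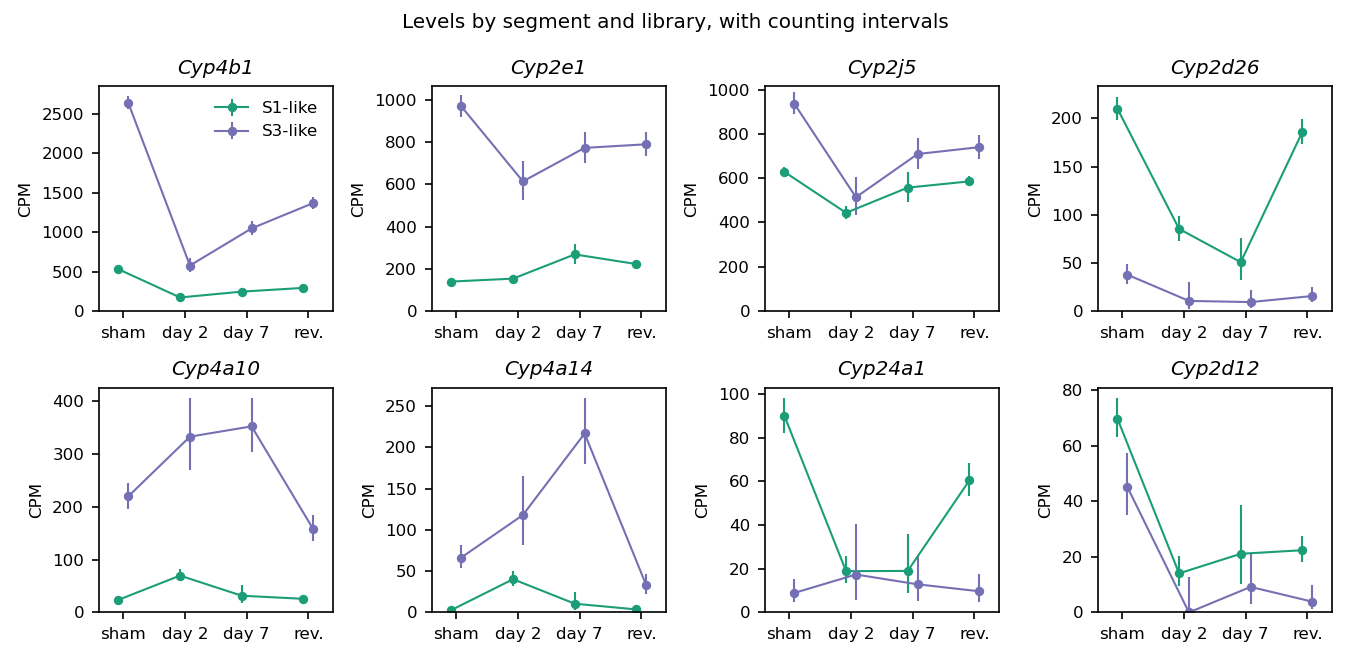
CPM of 8 members in S1-like and S3-like cells of the 4 droplet libraries, with 95% Poisson intervals and 1 library per point. Cyp4b1 is lowest at day 2 in both segments, while Cyp4a14 peaks at day 2 in S1-like and at day 7 in S3-like cells.

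Between day 2 and day 7, 7 of 24 tested members were higher in proximal cells (8.71% of all genes) and 1 was lower (1.73%). With at most 20% mitochondrial UMIs per cell, 1 of 19 was higher (8.46%) and 2 were lower (2.44%). Of the calls from day 2 to day 7, that of Cyp2j11 held in all 8 alternatives, those of Cyp4b1 and Cyp2a4 in 7, Cyp2e1 and Cyp7b1 in 6, Cyp2d9 in 5, Cyp2d26, the lower one, in 4 and Cyp27b1 in 3. Within S1-like cells 2 of 19 were higher (12.5%) and 3 lower (3.22%), and within S3-like cells 2 of 12 were higher (8.55%) and 1 lower (3.35%). Cyp2e1, at 322, 234, 528 and 365 proximal CPM, was 2.25-fold higher at day 7 than at day 2 in the pooled cells and under 2-fold higher in each segment (log2 0.80 and 0.33). Cyp2a4, with 24.6, 29.8, 75.8 and 23.9 proximal CPM, had its pooled peak at day 7, when S1-like cells held none. Cyp2j11, a relative of the Cyp2j5 epoxygenase, had 31.2, 13.5, 43.5 and 23.7 CPM and was called higher at day 7 within S3-like cells too. Cyp7b1, an oxysterol hydroxylase, was called higher at day 7 from 22 UMIs, of which 21 lay in 1 cell; without that cell it was at 0.757 CPM.

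From day 7 to reversal 7 of 27 members were lower (8.41% of all genes) and 3 higher (2.14%). With at most 20% mitochondrial UMIs per cell 4 of 19 were lower (4.11%) and 4 higher (3.64%), and with 10 CPM added 4 of 27 were lower (2.12%) and 2 higher (0.495%). The 7 were Cyp4a10, Cyp4a14, Cyp2a4, Cyp4f18, Cyp20a1, Cyp7b1 and Cyp27b1, and the 3 were Cyp2d26, Cyp24a1 and Cyp2u1. The Cyp7b1 call rested on 1 day 7 cell with 21 of 22 UMIs, without which day 7 was at 0.757 CPM. After reversal 8 of its 12 UMIs lay in 1 cell, without which it was at 0.633 CPM. The calls of Cyp20a1, Cyp7b1, Cyp4f18 and Cyp2u1 held in 6 of 8 alternatives, that of Cyp27b1 in 5, and the others in all 8. Within S1-like cells 4 of 23 were lower (15% of genes) and 4 higher (5.18%), and within S3-like cells 4 of 16 were lower (5.98%) and 0 higher (2.47%). Against sham, the reversed library had 2 members lower and 1 higher (Cyp4f18, against 10.1% of genes, a call lost at 10 CPM added), with 25 of 28 between the limits and a median of -0.10 against 0.26 for all genes. With at most 20% mitochondrial UMIs per cell, 5 of 20 were lower (2.2%) with a median of -0.51 against 0.081 for all genes, and with 10 CPM added 1 of 28 was lower (0.0177%) and 0 higher (1.46%). Within S1-like cells 1 of 25 was lower (Cyp2d12, 0.174% of genes) and 1 higher (Cyp2f2, 8.68%). Within S3-like cells 4 of 18 were lower (Cyp2d26, Cyp4f13, Cyp2d12 and Cyp2d9, 1.38%) and 0 higher (7.84%).

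Among the epoxygenases, Cyp2j5 (chromosome 4, 96628773 to 96664154, minus strand) had 681, 465, 657 and 618 proximal CPM and was called in no comparison of proximal cells. Its share of proximal cells with a UMI was 78.2%, 81.7%, 91.5% and 89.4%, and 47.7%, 36.5%, 44.0% and 43.6% at 1000 UMIs. Cyp2j13, its relative, had 86.5, 49.5, 75.1 and 76.4 CPM, and Cyp2c44, an epoxygenase of the Cyp2c group, 17.8, 19.1, 17.3 and 11.7 CPM. Cyp2a5 was at 16.1, 23.1, 12.8 and 18.4 CPM, Cyp27a1, the mitochondrial sterol 27-hydroxylase, at 20.5, 18.8, 18.8 and 17.7 CPM, and Cyp4f13, of the Cyp4f fatty acid hydroxylases, at 12.9, 16.3, 22.5 and 13.5 CPM. None of these 5 was called in the pooled proximal cells. Within S3-like cells Cyp2a5 was called higher at day 2 (41.8, 86.8, 18.4 and 35.8 CPM over the 4 libraries) and Cyp2j13 lower (186, 86.8, 79.0 and 121 CPM), and Cyp4f13 was called lower after reversal than in sham and at day 7. Cyp2a5 was also called lower at day 7 than at day 2 in both segments, and higher after reversal than at day 7 in S1-like cells, where day 7 had 2 UMIs.

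**Figure D4:**
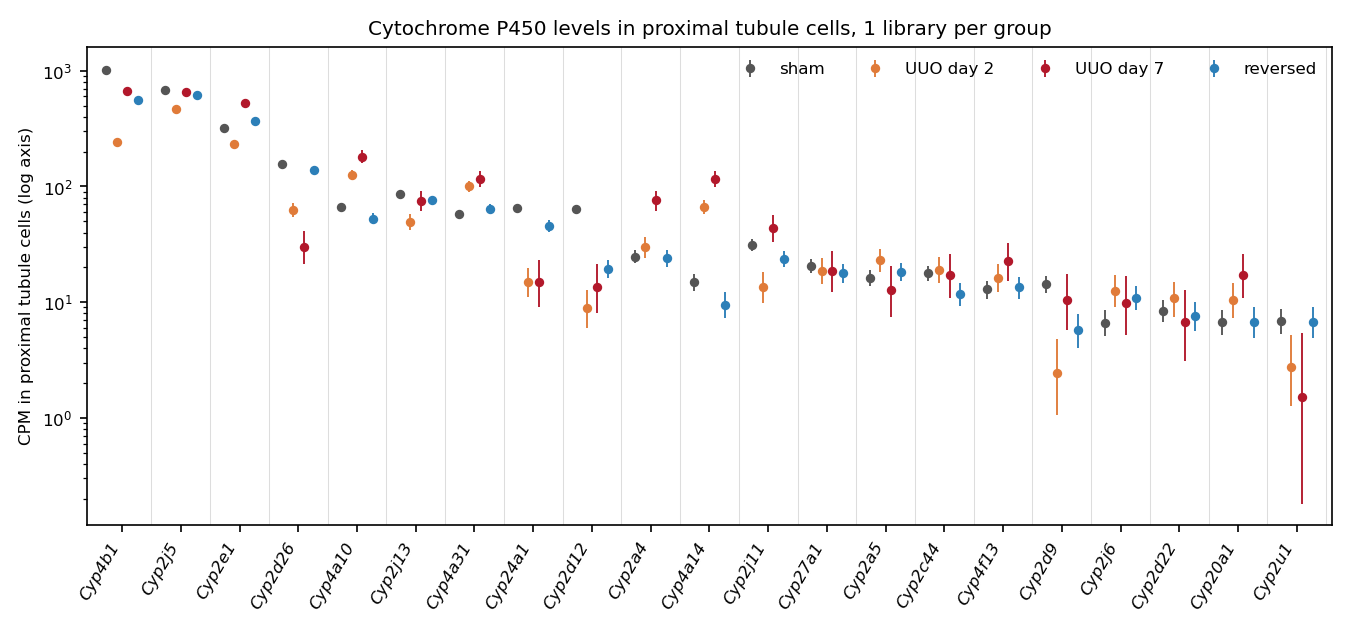
Proximal tubule CPM of the 21 members with at least 100 proximal UMIs in the 4 droplet libraries, on a log axis, with 95% Poisson intervals and 1 library per point. Cyp4b1 and the Cyp2d members are lowest in an obstructed library, Cyp4a14 and Cyp4a10 are highest there, and Cyp2j5 stays between 465 and 681 CPM.

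Proximal cells with at least 2 UMIs of the fibrinogen genes Fga, Fgb and Fgg numbered 25, 373, 63 and 70. At day 2 they differed from the other proximal cells in 2 of 20 members, Cyp24a1 lower (log2 -1.80, 0.933% of genes called) and Cyp2a4 higher (1.62, 3.75%). At day 7, 3 of 17 were lower, Cyp4a10, Cyp4a14 and Cyp7b1 (3.26%), and 0 were higher (2.37%), the Cyp7b1 call resting on 1 cell with 21 of its 22 UMIs. After reversal Cyp4a14 and Cyp2d9 were lower (2 of 25, 5.37%) and Cyp4f18 higher (3.23%). The S3 marker list stood at 152 CPM in the fibrinogen-positive and 70.1 CPM in the other proximal cells at day 2, at 435 and 713 CPM at day 7, and at 228 and 325 CPM after reversal. The S1 marker list stood at 768 and 914 CPM at day 2, at 628 and 339 CPM at day 7, and at 1150 and 989 CPM after reversal. Their part in these member differences was not tested.

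Genes that serve the P450 enzymes were read in pooled proximal cells first. None of the 6 redox partners was called in the 4 library comparisons; cytochrome b5 (Cyb5a) had 1408, 887, 1124 and 1083 CPM and the reductase Por 95.8, 82.7, 94.6 and 108. Of 10 haem genes 2 were higher at day 2 (9.54% of all genes), Alas1, the first enzyme of haem synthesis (41.0 to 83.9 CPM), and Hmox1, which degrades haem (13.9 to 47.0 CPM), and none was called in the other 3 comparisons. None of 11 tested regulators was called in these pooled cells (Hnf4a 186, 151, 158 and 165 CPM; Nr1h4 58.4, 59.7, 58.5 and 47.3 CPM). Of the epoxide hydrolases 0 of 2 was called at day 2 (Ephx2, soluble epoxide hydrolase, 172, 110, 209 and 176 CPM) and 1 of 3 was higher in the reversed library than in sham (10.1% of all genes). Of 4 flavin monooxygenases 1 was lower at day 2, Fmo5 (log2 -1.09, 1.49% of all genes), and 1 higher at day 7 than at day 2 (8.71%). Of the conjugation enzymes 0 of 10 was called at day 2 (Ugt2b38 758, 620, 616 and 736 CPM), 1 of 9 was lower in the reversed library than at day 7 (8.41%), and 2 of 10 were lower than in sham (0.186%). Within S3-like cells at day 2, 3 haem genes were higher and 1 of the conjugation enzymes too (11.1% of all genes), while 1 of 1 tested epoxide hydrolase, 1 of 3 flavin monooxygenases and 2 of 8 conjugation enzymes were lower (8.04%). Within S1-like cells at day 2, 2 of 10 haem genes and 1 of 11 regulators were higher (9.42% of all genes), and 2 of 9 conjugation enzymes were lower at day 7 than at day 2 (3.22%). From day 2 to day 7 within S3-like cells, 1 of 1 tested epoxide hydrolase was higher (8.55%) and 1 of 8 haem genes lower (3.35%). From day 7 to reversal, 1 of 8 haem genes and 1 of 8 conjugation enzymes were lower within S3-like cells (5.98%). Within S1-like cells 1 of 10 haem genes, 1 of 11 regulators and 2 of 9 conjugation enzymes were then lower (15%), and 1 haem gene and 1 conjugation enzyme higher (5.18%). In the reversed library against sham, 1 of 8 regulators and 1 of 8 conjugation enzymes were lower within S3-like cells (1.38%), and 1 of 10 conjugation enzymes within S1-like cells (0.174%). The other lists had no call in these segment comparisons. Between segments in sham, 2 of 6 redox partners, 1 of 2 epoxide hydrolases, 1 of 4 flavin monooxygenases and 4 of 10 conjugation enzymes were higher in S3-like cells, while 1 of 10 regulators and 3 of 10 conjugation enzymes were lower. Over all genes 7.2%, 6.14% and 4.51% were higher and 9.77%, 10.4% and 5.81% lower in S3-like cells of the other 3 libraries (day 2, day 7, reversed). There 0 of 5, 1 of 5 and 0 of 6 redox partners were higher, 1 of 10 haem genes and 1 of 9 regulators were higher at day 2 and 1 of 10 regulators lower after reversal, and of the epoxide hydrolases 1 of 2 was lower at day 2 and none was called later. The flavin monooxygenases higher in S3-like cells were 1 of 4, 1 of 3 and 1 of 4, and the conjugation enzymes 3 of 9, 3 of 8 and 3 of 9, with 0, 1 and 3 lower. In sham Por (log2 1.00), Cyb5a (1.11), Ephx2 (1.01) and Fmo5 (2.74) were higher in S3-like than in S1-like cells (5.55% of all genes), and Ppara was lower (-1.21, 5.8%).

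Cyp20a1, Cyp2d22 and Cyp26b1 were highest in endothelium, and Cyp4b1, highest in S3-like cells, was abundant there too. Cyp4b1 was at 994, 641, 434 and 413 CPM in 211, 149, 467 and 360 endothelial cells, from 559, 451, 840 and 717 UMIs. That is 97.4%, 262%, 65.3% and 74.1% of its proximal level, where the proximal marker list reached 9.24%, 2.35%, 1.18% and 4.196%. The share of endothelial cells with a Cyp4b1 UMI was 69.2%, 49.7%, 49.5% and 51.9%, and 52.6%, 32.9%, 29.8% and 27.2% at 1000 UMIs. The endothelial level was highest in sham and lowest after reversal, with a reversed over sham log2 ratio of -1.27 (interval -1.43 to -1.10), and unlike the proximal level it was no lower at day 2 than later.

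Cyp20a1, an orphan P450 without a settled substrate, had 164, 148, 127 and 117 endothelial CPM, against 6.76, 10.5, 17.3 and 6.80 CPM in proximal cells, and was called in no endothelial comparison. From day 2 to day 7, 0 of 11 endothelial members were lower (3.19% of genes) and 1 higher (Cyp4f18, 7.49%). From day 7 to reversal 1 of 13 was lower (Cyp4f18, 2.06%) and 2 higher (Cyp2j5 and Cyp2e1, 2.93%). In the reversed library against sham 2 of 10 were lower (Cyp4b1 and Cyp2j5, 3.25%) and 0 higher (8.27%). Endothelial Cyp4f18 was at 2.97%, 11.45% and 3.85% of its phagocyte level at day 2, day 7 and reversal. The phagocyte markers there were at 2.21%, 9.505% and 3.44% of theirs, and their part in the Cyp4f18 calls was not tested. Cyp26b1, which clears retinoic acid, had 96.0, 39.8, 61.5 and 73.7 CPM in endothelium and at most 1.11 CPM in proximal cells. It was called lower at day 2 together with Cyp2j5 and Cyp2e1, 3 of 7 tested against 4.74% of all genes, and 0 were higher (4.4%). Endothelial Cyp2j5 was at 9.14%, 3.06%, 1.26% and 3.54% of its proximal level and Cyp2e1 at 13.2%, 7.90%, 2.25% and 10.6%, against the marker list at 9.24%, 2.35%, 1.18% and 4.196%. Cyp2j5 thus lay near the list in each library and Cyp2e1 above it. Cyp2e1 was above the list in thick ascending limb cells too, at 10.2%, 4.38%, 1.07% and 8.03% against 6.998%, 1.66%, 0.793% and 3.39%. In day 7 phagocytes it was below (2.10% against 3.01%). The excess was thus not particular to endothelium, and its source was not tested. Cyp2d22, a further Cyp2d hydroxylase, had 44.5, 34.1, 34.1 and 32.8 endothelial CPM and 8.42, 10.8, 6.75 and 7.59 proximal CPM.

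Phagocytes, numbering 68, 521, 2433 and 612 cells, held Cyp4f18, Cyp27a1 and Cyp4f16. Cyp4f18, a hydroxylase of leukotriene B4, had 131, 143, 122 and 105 CPM. The day 2, day 7 and reversed intervals (134 to 154, 117 to 127 and 95.7 to 114 CPM) lay apart, while that of sham (90.8 to 183) overlapped all of them. Phagocytes with a UMI were 30.9%, 61.2%, 43.5% and 39.1% (21, 319, 1058 and 239 cells). In neutrophils it had 168, 239 and 644 CPM in the 20, 51 and 16 cells of the day 2, day 7 and reversed libraries, with no neutrophil in sham. At day 2, 5 of its 17 neutrophil UMIs lay in 1 cell, without which the level was 124 CPM, below that of phagocytes. After reversal 11 of 43 lay in 1 cell, without which it was 503 CPM. In proximal cells Cyp4f18 was at 0.208 CPM in sham, on 2 UMIs, and at 7.38 CPM at day 2, on 24 (log2 2.79, interval 2.06 to 3.12, and 0.77 with 10 CPM added). It was at 15.0 CPM at day 7 and 3.16 CPM after reversal. The 9 phagocyte markers in these proximal cells stood at 52.0, 506, 2371 and 904 CPM, or 0.243%, 2.30%, 8.83% and 3.11% of their phagocyte level. Their part in the proximal Cyp4f18 values was not tested.

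Cyp27a1 had 61.7, 13.3, 47.1 and 46.6 CPM in phagocytes, from 16, 77, 808 and 227 UMIs. It was low at day 2, 4.38-fold below sham, and 3.36-fold higher again at day 7, while its proximal level stayed between 17.7 and 20.5 CPM. Cyp4f16, of the Cyp4f group, had 61.7, 48.1, 40.6 and 27.7 CPM, from 16, 278, 696 and 135 UMIs. Cyp8b1, a sterol 12α-hydroxylase of bile acid synthesis, was found in 0, 3, 29 and 22 phagocytes at up to 5 UMIs in a cell, which is 0% of 68 (3 counts, the limit used for a count of 0, would be 4.41%), 0.576%, 1.19% and 3.59%. Counted over all members, phagocytes had 7 of 10 lower (9.06% of genes) and 1 higher (19.6%) at day 2 against sham, 0 of 23 lower (2.46%) and 5 higher (9.48%) at day 7 against day 2, 1 of 25 lower (1.62%) and 4 higher (1.95%) after reversal against day 7, and 3 of 11 lower (5.55%) and 1 higher (19.4%) after reversal against sham. These counts include proximal members such as Cyp4b1 and Cyp2j5, whose marker list stood at 10.6% of its proximal level in sham phagocytes and at 3.73%, 3.01% and 5.49% later, and its part in them was not tested. Cyp2r1, a vitamin D 25-hydroxylase, was found in 3, 9, 50 and 15 phagocytes, and Cyp2ab1 in 1, 4, 10 and 7.

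Intercalated cells, the acid and base secreting cells of the collecting duct, numbered 41, 123, 118 and 100. Cyp1a1, the classical aryl hydrocarbon receptor target, had 64.6, 20.4, 25.8 and 34.7 CPM from 21, 27, 29 and 36 UMIs there and at most 0.791 CPM in proximal cells. Its sham level was the highest, with an interval of 40.0 to 98.8 CPM apart from those of day 2 (13.4 to 29.6) and day 7 (17.3 to 37.1). The reversed interval overlapped that of sham. In the reversed library 9 of the 36 UMIs lay in 1 cell, without which the level was 26.5 CPM. Cyp3a13, of the drug-metabolising Cyp3a family, had 0, 41, 39 and 19 UMIs, or 0, 30.9, 34.7 and 18.3 CPM, and 3 counts in the sham sum would be 9.23 CPM. Over the 4 libraries Cyp3a13 was at 38.4 CPM in 98 cells with Slc4a1 but no Slc26a4 UMIs and 7.26 CPM in 184 cells with Slc26a4 but no Slc4a1 UMIs, while Cyp1a1 was at 18.6 and 40.2 CPM in the same cells. By library (sham, day 2, day 7, reversed) Cyp3a13 was at 0, 66.1, 42.5 and 20.8 CPM in the 13, 29, 21 and 35 cells of the first kind and at 0, 8.94, 5.70 and 9.54 CPM in the 25, 69, 47 and 43 of the second. Cyp1a1 was at 28.4, 20.9, 18.2 and 14.9 CPM and at 77.2, 25.6, 38.0 and 47.7 CPM. Within a library the Cyp3a13 intervals lay apart at day 2 (39.8 to 103 and 3.60 to 18.4 CPM) and at day 7 (17.1 to 87.5 and 1.18 to 16.6 CPM). The Cyp1a1 intervals of the same cells overlapped in each library. Slc4a1 and Slc26a4 name the acid-secreting and base-secreting kinds of intercalated cell.

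Cyp2s1, an oxidase of epithelia, had 64.6, 67.9, 34.7 and 49.1 CPM in intercalated cells, and Cyp4v3, a fatty acid ω-hydroxylase, 21.5, 54.3, 58.8 and 40.4 CPM. Cyp4x1 was highest there too, at 0.963 to 4.45 CPM. Principal cells (67, 79, 97 and 58) had Cyp39a1, which hydroxylates 24-hydroxycholesterol, at 33.3, 24.6, 28.9 and 19.4 CPM and Cyp7b1 at 13.9, 49.2, 43.4 and 23.2 CPM. Cyp2j6, an epoxygenase relative of Cyp2j5, had 98.5, 52.5, 86.4 and 70.4 CPM in the 19 to 41 distal convoluted cells of a library, and Cyp2u1, a long-chain fatty acid hydroxylase, 45.5, 7.50, 47.5 and 27.6 CPM. Intervals of neighbouring libraries overlapped for Cyp39a1, Cyp2j6 and Cyp2u1 in these cells.

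**Figure D5:**
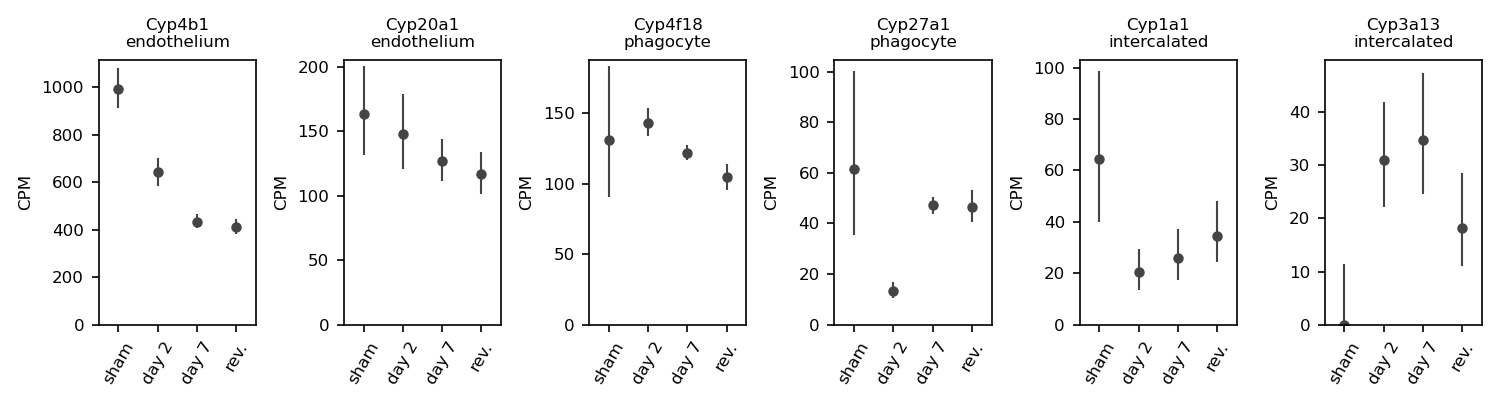
CPM in the 4 droplet libraries of Cyp4b1 and Cyp20a1 in endothelium, Cyp4f18 and Cyp27a1 in phagocytes, and Cyp1a1 and Cyp3a13 in intercalated cells, with 95% Poisson intervals and 1 library per point. Cyp27a1 dips at day 2, and Cyp3a13 has no UMI in the sham cells.

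The remaining 23 members had too few UMIs to read a highest cell type, and 17 members had fewer than 10 deposited UMIs. Members of steroid hormone synthesis were near absent, with 8 UMIs of Cyp11a1 and 4 of Cyp17a1, and no cell met the adrenocortical marker rule. In the Smart-seq2 wells, read without regard to time point, 52 of the 62 members had at least 1 read, with a median of 95274 reads on genes per well. Lyz2 was found in 768 wells and Csf1r in 760, against Lrp2 in 88. The members with most reads were those of the phagocytes: Cyp27a1 had 95206 reads in 533 wells, Cyp4f18 65136 in 547 and Cyp4f16 24488 in 337. Cyp4v3 had 16142 reads in 203 wells, 38.9% of them in 1 well, and Cyp4b1 13204 reads in 109 wells, 30.6% of them in 1 well.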

How the data were processed

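The deposited values are whole-number counts: UMIs of each gene in each barcode for 4 droplet libraries (10x 3′ version 2), and reads of each gene in each of the Smart-seq2 wells. Cell Ranger, STAR and the builds GRCm38 and mm10 are named per the submitters' processing notes, without version. Barcodes under 200 detected genes or above 50% mitochondrial UMIs were dropped, and the highest Scrublet scores (scanpy 1.11.5) were removed at 0.8% per 1000 barcodes (187, 48, 160 and 96 cells).

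A cell took the type with the highest mean marker level, each marker scaled to its 90th percentile over cells with it, given at least 2 distinct markers and 3 marker UMIs and a lead of 0.1 over the next list. A proximal cell was S1-like or S3-like with at least 2 UMIs of that segment list and 3 times those of the other. Cells with no clear lead stayed unassigned. UMIs were summed per type and library. Intervals are exact: Poisson for levels, Clopper-Pearson for shares, conditional binomial for ratios, at 0.95 confidence, and a count of 0 is given the limit of 3 counts. S3-like and S1-like sums of the same library were compared over the 4 libraries with edgeR 4.0.16 (glmQLFit and glmQLFTest, library as block, TMM, at least 20 UMIs over the 8 sums, 3 residual degrees of freedom) on the deposited counts; this fit was added after the data were seen, with DESeq2 1.42.0 as an alternative, and its code was tested on simulated sums. The pooled mice within a library cannot be separated.

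The members, gene lists, marker lists and comparisons were chosen with earlier results of these data known. Members with at least 200 UMIs, and the others whose highest cell type was not proximal, were named; pathway lists are given as counts with at most 2 genes each, apart from called genes. Alternatives were another mitochondrial limit, CPM without mitochondrial UMIs, TMM factors (edgeR 4.0.16), a pseudocount of 10 CPM, no low-count filter, no doublet removal, the mean of CPM per cell, stricter cell rules and thinning to 1000 UMIs; an S3 list of Slc7a13 and Slc5a8 alone was added after seeing the data. The ratio code was tested on simulated data. Promoters are from RefSeq (GRCm38.p6) and gene spans and transcript words from GENCODE vM21. Calculations used scipy 1.17.1, biopython 1.88, pandas 2.3.3 and numpy 2.4.6 under Python 3.11.15, and plots matplotlib 3.10.9.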

Additional observations from a re-analysis of the deposited data

Results flagged for a closer look

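6 genes of the symbol pattern had 0 UMIs in the droplet libraries and more than 3 reads in the Smart-seq2 wells, which entered no comparison. Cyp3a11 had 35 reads, Cyp2t4 had 17, Cyp2c70 had 10, Cyp3a25 had 8, Cyp11b1 had 7 and Cyp1a2 had 4. Of the other undetected symbols 14 had 1 to 3 reads. The reads carry no molecular identifiers, so a few reads can stem from 1 molecule.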

How the results depend on the processing

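No paired analysis was possible between time points because each group is 1 library. For S3-like against S1-like cells, paired by library (added after seeing the data), the fit with no replicate block called 7 members higher and 1 lower (1.82% and 1.48% of all genes) in place of 11 and 4 (5.52% and 4.98%), DESeq2 10 and 3 (3.24% and 2.23%), no TMM factors 12 and 4 (6.51% and 4.69%), and leaving out 1 library 11 higher and 3 to 4 lower (3.4 to 6.48% and 2.72 to 5.82%). Percentages beside the counts below are again the shares of all genes under the same setting. With at most 20% mitochondrial UMIs per cell, the summed member CPM in proximal cells was 3073, 1679, 2244 and 2070 (sham, day 2, day 7, reversed). Day 7 over day 2 then had 2 members lower (2.44%) and 1 higher (8.46%), reversed over day 7 had 4 lower (4.11%), and reversed over sham had 5 lower (2.2%) with a median of -0.51. The day 2 over sham median was -0.62, and S3-like cells had 1 member lower at day 2 (11.8%) and 0 at day 7 (11.6%). Without mitochondrial UMIs in the scale the sums were 4128, 2060, 3331 and 3000, and with TMM factors 3360 in sham and 2243 at day 7, with 2 members lower from day 2 to day 7 (3.12%). A pseudocount of 10 CPM gave 4 lower (0.561%) and 1 higher (2.36%) at day 2, 0 lower from day 2 to day 7 (0.363%), 4 lower from day 7 to reversal (2.12%), 1 lower (0.0177%) and 0 higher (1.46%) in reversed over sham, and 3 lower in reversed S3-like cells (1.43%). No low-count filter gave 3 higher in reversed over sham (9.01%), 6 lower in sham S3-like cells (6.13%), 10 lower (16.6%) and 11 higher (12.6%) in those of day 2, and 9 lower (21.9%) and 15 higher (15.4%) in those of day 7. The mean of CPM per cell gave 2951 at day 7 and a stricter proximal rule 2978, each with 0 members lower from day 2 to day 7 (2.47% and 2.26%), the latter with 4 higher (6.98%). A stricter segment rule gave 5 lower in sham S3-like cells (7.9%). The other 176 values over all members stayed within 1.5 times (counts) or inside the counting interval (sums and medians).

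For single members 1798 values stayed inside their counting interval, 318 moved outside it and 4 called values changed sign. Reversed over day 7, Cyp7b1 was 1.40 at 20% mitochondrial UMIs and 1.54 under the stricter proximal rule, where day 7 over day 2 was -1.002. In S3-like over S1-like cells Cyp20a1 at day 2 was 0.29 with the added S3 list. In the main processing 21 of the 22 proximal day 7 UMIs of Cyp7b1 lay in 1 cell. The cause of the sign changes was not tested. The S3-like cells of day 2 (43) and the S1-like cells of day 7 (62) limit the depth of segment values most.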

Other observations

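Cyp1b1, a hydroxylase of oestrogens and retinoids, had most of its UMIs outside the named tubule cell types, and proximal cells had 1, 1, 1 and 8 of them. In the reversed library, which held 292 Cyp1b1 UMIs, thick ascending limb cells had 3, distal convoluted cells 2, intercalated cells 4, podocytes 16 (6 cells, with 6 UMIs in 1 of them) and cells of no named type 188. Stromal cells had 0, 2, 140 and 39 Cyp1b1 UMIs in sham, day 2, day 7 and reversed libraries (9, 10, 78 and 76 cells). A group of cells with both Wt1 and Ncam1 UMIs, chosen after the data were seen and numbering 5, 10, 10 and 70, had Cyp1b1 at 120, 171, 208 and 245 CPM. All other kept cells had 0.243, 1.37, 6.63 and 4.48 CPM. Of the 95 cells with both UMIs, 70 came from the reversed library.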
